A study of Rattus norvegicus with 6 samples.

Results

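The accessible chromatin of 7 ion channel genes was described in islet cells of young and adult rats. The genes are Kcnj11 and Abcc8, which encode the subunits of the ATP-sensitive potassium (KATP) channel, Cacna1a, Cacna1c, Cacna1d and Cacnb2, which encode subunits of voltage-gated calcium channels, and Kcnma1, which encodes a calcium-activated potassium channel. The sites described are all accessible sites (ACS) of the deposited quantification for which 1 of these symbols is given as the nearest gene, and these were 136 of 101603 distinct ACS. Kcnma1 had 51 of them, Cacnb2 23, Cacna1c 22, Cacna1d 15, Cacna1a 11, Kcnj11 9 and Abcc8 5. Each of the 136 was listed with a single nearest gene.

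ATAC-seq uses the Tn5 transposase, which integrates sequencing adapters where DNA is accessible, and the values are counts of these integrations. The Adult group holds 3 libraries (replicates 4, 5 and 6), from dissociated islet cells of 3 male Sprague-Dawley rats of around 90 days. The P10 group holds 3 libraries (replicates 1, 2 and 3), from pooled male and female pups of 3 litters at 10 days after birth. The pancreas of pups was digested by shaking in collagenase, whereas in adults the enzyme was injected into the pancreatic duct. Whole islet cells were used without sorting for cell type, so a change in the mix of cells and a change within a cell type cannot be told apart, and age, sex, pooling and the digestion differ together between the groups.

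In the β-cell, glucose metabolism raises the ratio of ATP to ADP, which closes the KATP channel. The membrane then depolarizes, voltage-gated calcium channels open, and the entry of calcium triggers the release of insulin, after which potassium channels repolarize the cell. Newborn islets are known to release insulin poorly in response to glucose, and this coupling matures after birth.

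Promoter sequences of RefSeq are shown for the 3 genes that had an ACS of the TSS class and a single listed start, because these ACS lie over or next to the gene start and can be compared with the distal ACS described later. Each line gives the 250 bases before the listed start on the strand of the gene, 5′ to 3′, in the GRCr8 assembly, whereas all ACS positions are those of Rn5, so the windows need not coincide with the ACS. Cacna1a is on the minus strand in GRCr8 and on the plus strand in Rn5. Whether the listed starts are those of transcription was not checked. Capitals mark matches to GGGCGG (the GC box) or CAGGTG (an E-box bound by Scratch and Snail repressors), searched on both strands, and overlapping matches run together.
Cacna1a, chr19:40650469-40650718, minus strand: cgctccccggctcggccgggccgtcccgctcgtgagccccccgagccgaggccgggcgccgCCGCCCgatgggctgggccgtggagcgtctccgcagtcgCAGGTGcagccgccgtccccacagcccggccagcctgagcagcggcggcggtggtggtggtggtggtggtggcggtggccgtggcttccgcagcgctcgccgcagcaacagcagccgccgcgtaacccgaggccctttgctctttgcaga
Cacna1d, chr16:5527550-5527799, minus strand: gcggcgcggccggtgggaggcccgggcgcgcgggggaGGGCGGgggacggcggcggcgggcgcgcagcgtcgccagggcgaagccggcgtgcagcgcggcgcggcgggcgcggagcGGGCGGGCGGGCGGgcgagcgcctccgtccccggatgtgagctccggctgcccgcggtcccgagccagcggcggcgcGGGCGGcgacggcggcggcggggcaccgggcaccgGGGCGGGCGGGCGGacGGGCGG
Kcnma1, chr15:351675-351924, plus strand: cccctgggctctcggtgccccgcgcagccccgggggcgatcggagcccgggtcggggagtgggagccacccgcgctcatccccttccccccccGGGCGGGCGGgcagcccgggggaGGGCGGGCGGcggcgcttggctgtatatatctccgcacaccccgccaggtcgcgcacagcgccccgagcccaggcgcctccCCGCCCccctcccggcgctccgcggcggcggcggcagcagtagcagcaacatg

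All 3 windows were rich in G and C, with 76.8% for Cacna1a, 88.8% for Cacna1d and 79.6% for Kcnma1, against a median of 51.2% over 33469 RefSeq promoters. The GC box letters occurred 9 times in the Cacna1d window, 5 times in the Kcnma1 window and 1 time in that of Cacna1a, and 30.5% of all promoters held at least 1 match. The E-box letters occurred 1 time, in the Cacna1a window, against 15.9% of all promoters. TGACGTCA (the CRE) and TATAAA (the TATA box), found in 1.59% and 12.9% of all promoters, were in none of the 3 windows. A match is a description of the letters and was not tested as a binding site.

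The adult libraries had 7916919 to 11903909 integrations within ACS, whereas the P10 range was 13491534 to 21168463. Counts are given as CPM, counts per 1000000 integrations in ACS, scaled with TMM factors (trimmed mean of M values). Log2 fold changes (Adult over P10) come from edgeR's quasi-likelihood test, and an ACS was called Up or Down at the limits of the study, p below 0.05 together with FDR below 0.2 over all ACS. At these limits 12504 ACS were Up and 6738 Down. A mean of 10.8 to 763 integrations per library fell in a single ACS of the channel genes, with a median of 72.7 against 64.8 over all ACS, and the median SE of the log2 fold change was 0.29 and 0.30. P10 replicate 1 stood apart at these genes, as the highest P10 library at 109 of the 136 ACS (36.2% of all ACS), so results that rest on it are also given without it.

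Of the 136 ACS of the channel genes, 24 were called Up, 5 Down and 107 were not called. The Up share was 17.6%, against 12.3% of all ACS, and the Down share was 3.68%, against 6.63%. Kcnma1 held 12 of the 24 Up ACS, and without it 12 of 85 ACS were Up (14.1%) and 4 Down (4.71%). The median log2 fold change was 0.10 over the 136 ACS and -0.01 over all ACS. Up ACS were found at Kcnma1 (12 of 51), Cacna1a (4 of 11), Cacnb2 (4 of 23), Cacna1c (2 of 22) and Cacna1d (2 of 15), and none at Kcnj11 or Abcc8. The Down ACS were 2 of Cacnb2 and 1 each of Abcc8, Cacna1c and Kcnma1.

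The log2 fold changes of the Up ACS ran from 0.54 to 1.67, with a median of 0.92, and those of the Down ACS had a median of -0.91. The adult libraries were all higher than the P10 libraries at 22 of the 136 ACS (13.8% of all ACS), and all lower at 11 (10.9% of all ACS). Of the 24 Up ACS, 19 were without overlap between the groups. These ACS were called from the same 6 libraries, so this describes the calls and is no further result. The share over all Up ACS was not counted. With the column sums in place of TMM, 22 were Up and 9 Down (10.3% and 10.6% of all ACS), and with the total reads of the study as library sizes, which moved the median log2 fold change of all ACS to -0.84, 1 was Up and 69 Down (1.05% and 60.7% of all ACS). By DESeq2 23 were Up and 3 Down (12.4% and 6.21% of all ACS) and by limma voom 26 and 3 (12.2% and 6.16%), and of the 96 with a mean of at least 50 integrations 18 were Up and 3 Down (15.4% and 11.8%). At an FDR under 0.05, 12 of the 136 ACS were Up and 1 Down, with 7.06% and 1.91% of all ACS as the background.

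**Figure D1:**
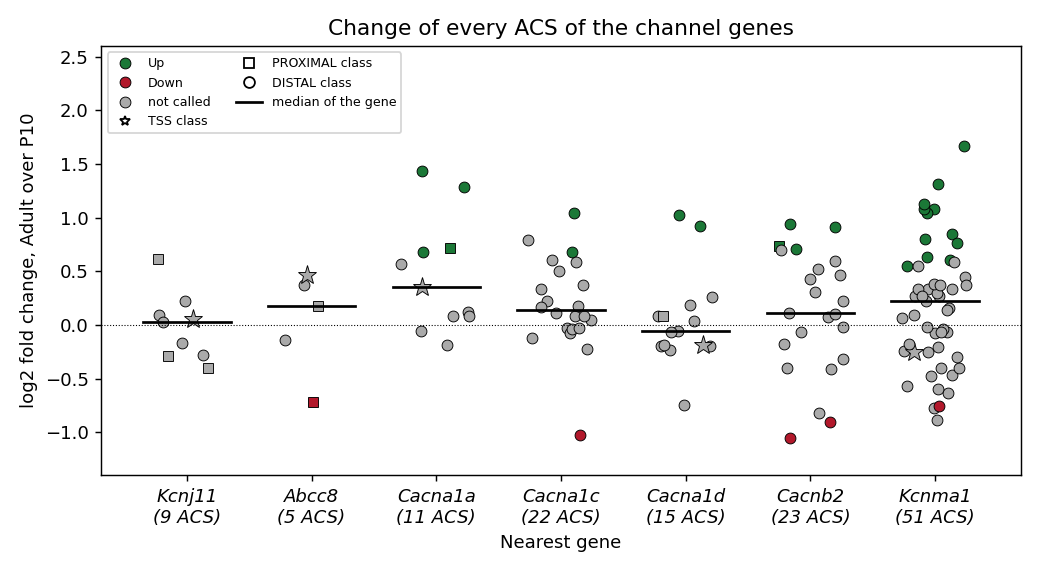
The log2 fold change (Adult over P10) of each of the 136 ACS is plotted by nearest gene, with the symbol showing the class, the colour the call and the line the median of the gene. The 24 Up ACS are spread over 5 genes, with Kcnma1 holding 12 of them, and no ACS of the TSS class is called.

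Most ACS of these genes were far from a gene start. The deposited classes put 123 in the distal class (more than 10 kb from the start), 8 in the proximal class and 5 in the TSS class (within 1 kb), and the median of the deposited distances was 114 kb, against 61.1 kb for all ACS. Of the distal ACS 22 were Up and 4 Down (13.8% and 6.45% of all distal ACS), of the proximal ACS 2 were Up and 1 Down (11.2% and 6.71%), and of the 5 TSS ACS none was called (2.73% Up and 7.87% Down of all TSS ACS). An Up proximal ACS of Cacnb2, from 83539655 to 83540620, ends just before the gene start at 83540715. Its deposited distance of 1.06 kb keeps it out of the TSS class. The position within the gene was inside for 91 ACS, of which 19 were Up and 4 Down (20.9% and 4.4%, against 16% and 6.7% of all ACS inside their nearest gene), and upstream for 38, of which 4 were Up and 1 Down (10.5% and 2.63%, against 12.3% and 6.61% of all upstream ACS).

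The nearest gene is the one with the nearest start, which decides what is counted here. The spans of Cacna1a, Cacna1c, Cacna1d and Cacnb2 held a further 6, 10, 10 and 9 ACS that are listed with Ier2, Zfp9, Chdh and Nsun6, and these are not among the 136. The Kcnma1 span held no ACS listed with another gene.

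Kcnj11 and Abcc8 lie side by side on chromosome 1 of Rn5, both on the minus strand, from 103186859 to 103189892 and from 103194473 to 103275508. Kcnj11 encodes Kir6.2, the pore of the KATP channel, and Abcc8 encodes SUR1, the subunit that binds sulfonylureas. Because of this arrangement, 5 of the 9 ACS listed with Kcnj11 are inside the span of Abcc8, and the 14 ACS of both genes are described together as a locus. Sums, shares and levels are still given for each gene. As the genes share a neighbourhood, their values are not independent observations.

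The ACS with the most integrations among all 136 was of this locus, from 103213393 to 103214023, inside Abcc8 with its middle 23.8 kb upstream of the Kcnj11 start. It held 59.2, 54.6 and 32.9 in adult replicates 4, 5 and 6, and 79.7, 45.3 and 39.97 in P10 replicates 1, 2 and 3 (CPM). The groups overlapped, with P10 replicate 1 the highest and adult replicate 6 the lowest of the 6 libraries. Its log2 fold change was -0.17 (SE 0.22, edgeR adjusted p = 0.735), and it ran from -0.37 to 0.19 as single libraries were dropped.

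A second strong ACS inside Abcc8, from 103236292 to 103236931, had the same order at both ends. Its CPM were 45.1, 37.9 and 25.8 in adult replicates 4, 5 and 6, and 55.6, 30.4 and 34.3 in P10 replicates 1, 2 and 3, with a log2 fold change of -0.14 (SE 0.21, edgeR adjusted p = 0.773). Neither of these sites was called, and both changed sign without P10 replicate 1, where the log2 fold changes were 0.19 and 0.16.

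At the Kcnj11 start, the TSS ACS from 103190291 to 103190745 held 11.3 ± 2.65 CPM (SD, n = 3) in the adult and 10.9 ± 1.25 CPM (SD, n = 3) in the P10 libraries, and its log2 fold change was 0.05 (SE 0.23, edgeR adjusted p = 0.935). The groups overlapped there. The TSS ACS of Abcc8, from 103275462 to 103275980, held 11.3, 11 and 10.8 in adult replicates 4, 5 and 6, and 13.1, 5.42 and 5.34 in P10 replicates 1, 2 and 3 (CPM), so that the adult values were close together and P10 replicate 1 lay above all of them while the other two P10 libraries lay below. Its log2 fold change was 0.46 (SE 0.28, edgeR adjusted p = 0.374), and without P10 replicate 1 it was 1.03 with an edgeR adjusted p of 0.0103. Without P10 replicate 2 or 3 it was 0.24 and 0.23 (edgeR adjusted p = 0.792 and 0.779). Leaving out an adult library gave 0.45 to 0.48 (edgeR adjusted p = 0.445 to 0.480), so the low p-value depended on leaving out P10 replicate 1.

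The single call of the locus was Down, at a proximal ACS inside Abcc8 from 103273678 to 103274061, 1.64 kb from the start (distances of named ACS are those of their middle). It held 4.16, 3.8 and 2.71 in adult replicates 4, 5 and 6, and 9.11, 3.71 and 4.7 in P10 replicates 1, 2 and 3 (CPM), and adult replicate 4 lay above P10 replicate 2, so the groups overlapped. The log2 fold change was -0.72 (SE 0.33, edgeR adjusted p = 0.198), just under the FDR limit, and the site was called in 2 of the 6 fits that left out a library. Without P10 replicate 1 it was -0.25 (edgeR adjusted p = 0.749). The ACS of Kcnj11 had log2 fold changes from -0.41 to 0.62 and the remaining ACS of Abcc8 from -0.14 to 0.46.

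Summed over its ACS, Kcnj11 held 136, 125 and 77.7 in adult replicates 4, 5 and 6 and 169.8, 95.2 and 91.5 in P10 replicates 1, 2 and 3 (CPM). The means were 113 ± 31.1 CPM (SD, n = 3) in the adult and 119 ± 44.2 CPM (SD, n = 3) in the P10 libraries, and the exact permutation test over libraries gave p = 0.9. Abcc8 had sums of 90.4, 72.6 and 57.8 in adult replicates 4, 5 and 6 and 104, 53.7 and 62.3 in P10 replicates 1, 2 and 3 (CPM), with means of 73.6 ± 16.3 CPM (SD, n = 3) in the adult and 73.4 ± 27.1 CPM (SD, n = 3) in the P10 libraries and p = 1 in the same exact permutation test. For both genes the spread within each age was larger than the difference between the means.

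Cacna1c and Cacna1d encode CaV1.2 and CaV1.3, the pore-forming subunits of L-type calcium channels, which carry much of the calcium current of β-cells. Cacna1c lies on the minus strand of chromosome 4 from 216564927 to 217184927. All 22 of its ACS are inside the gene and of the distal class, at 19.3 to 342 kb from the start, so no ACS at its listed start was analysed here. The 22 ACS also lie inside the listed span of LOC100911272.

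The Cacna1c ACS with the most integrations, from 217165633 to 217166400, held 18.3 ± 3.43 CPM (SD, n = 3) in the adult and 21.5 ± 2.29 CPM (SD, n = 3) in the P10 libraries, and its log2 fold change was -0.23 (SE 0.20, edgeR adjusted p = 0.579). The called ACS of this gene with the smallest p-value was Down. From 216868590 to 216869098, 316 kb inside the gene, the CPM were 2.98, 3.21 and 3.09 in adult replicates 4, 5 and 6, and 7.76, 6.21 and 4.92 in P10 replicates 1, 2 and 3. All adult values were lower than all P10 values, and the adult values differed little among themselves. The log2 fold change was -1.02 (SE 0.29, edgeR adjusted p = 0.0248), and the call held in 6 of the 6 fits without a library.

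The other called ACS of Cacna1c were Up, with overlap between the groups. The ACS from 216938842 to 216939350 held 20.3, 16.4 and 7.73 in adult replicates 4, 5 and 6, and 14.2, 7.35 and 6.19 in P10 replicates 1, 2 and 3 (CPM), a log2 fold change of 0.68 (SE 0.30, edgeR adjusted p = 0.169). The ACS from 217081288 to 217081549 held 6.05, 2.82 and 3.61 in adult replicates 4, 5 and 6, and 3.11, 1.5 and 1.37 in P10 replicates 1, 2 and 3 (CPM), a log2 fold change of 1.05 (SE 0.37, edgeR adjusted p = 0.080). They were called in 2 and 3 of the 6 fits without a library. Without P10 replicate 1, 8 of the 22 ACS of Cacna1c were Up and 1 Down, where 12.8% and 6.78% of all ACS were called. In the other fits without a library 0 to 5 of the 22 were Up. In the full fit the 19 ACS that were not called ran from -0.23 to 0.80.

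Cacna1d lies on the minus strand of chromosome 16 from 6045673 to 6339138, and 14 of its 15 ACS are inside the gene. Both called ACS were Up, without overlap between the groups, and neither call was lost when any single library was dropped. The ACS from 6215694 to 6216072, 123 kb from the start, held 12.2, 9.93 and 11.7 in adult replicates 4, 5 and 6, and 7.72, 4.56 and 5.45 in P10 replicates 1, 2 and 3 (CPM), with a log2 fold change of 0.92 (SE 0.25, edgeR adjusted p = 0.0174). The ACS from 6308862 to 6309295, 30.1 kb from the start, held 16.7, 11.5 and 9.41 in adult replicates 4, 5 and 6, and 9.25, 5.92 and 3.33 in P10 replicates 1, 2 and 3 (CPM). There the lowest adult library and the highest P10 library were nearly equal, and the log2 fold change was 1.02 (SE 0.29, edgeR adjusted p = 0.0249).

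The TSS ACS of Cacna1d, just before the listed Rn5 start, lies from 6339487 to 6339913 and held 4.63 ± 1.39 CPM (SD, n = 3) in the adult and 5.27 ± 1.17 CPM (SD, n = 3) in the P10 libraries. Its log2 fold change of -0.18 (SE 0.29, edgeR adjusted p = 0.795) did not pass the test. The ACS of this gene with the most integrations, from 6242501 to 6242848, held 15.7 ± 4.16 CPM (SD, n = 3) in the adult and 13.2 ± 4.75 CPM (SD, n = 3) in the P10 libraries, a log2 fold change of 0.26 (SE 0.25, edgeR adjusted p = 0.618). The 13 ACS that were not called ran from -0.75 to 0.26.

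Cacna1a encodes CaV2.1, the pore of the P/Q-type calcium channel, which is best known at nerve terminals and is also present in β-cells. It lies on the plus strand of chromosome 19 from 36502533 to 36727039. Of its 11 ACS, 4 were Up and none Down (edgeR, 4 Up and 0 Down also at an unadjusted p-value under 0.05, and 0 Down by DESeq2 and limma). The median log2 fold change of the 11 ACS was 0.36.

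The largest change at Cacna1a was inside the gene, 71.1 kb from the start, from 36573427 to 36573755. The CPM there were 6.24, 5.16 and 4.64 in adult replicates 4, 5 and 6, and 3.39, 1.43 and 1.0 in P10 replicates 1, 2 and 3, without overlap between the groups, and the log2 fold change was 1.44 (SE 0.37, edgeR adjusted p = 0.0112). A further ACS inside the gene, from 36608342 to 36608592, held 1.81, 5.16 and 5.41 in adult replicates 4, 5 and 6, and 1.81, 1.43 and 1.74 in P10 replicates 1, 2 and 3 (CPM). Adult replicate 4 was at the level of the P10 libraries and the other two adult libraries were well above them, and the log2 fold change was 1.28 (SE 0.38, edgeR adjusted p = 0.0307). Both calls held in all 6 fits without a library.

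The ACS of Cacna1a with the most integrations, from 36585834 to 36586408, was Up as well, with 15.5, 16.2 and 10.7 in adult replicates 4, 5 and 6, and 11.9, 7.63 and 6.93 in P10 replicates 1, 2 and 3 (CPM) and a log2 fold change of 0.68 (SE 0.24, edgeR adjusted p = 0.0838). The groups overlapped, and the call was kept in 2 of the 6 fits without a library. The Up ACS nearest to the start is proximal, 1.41 kb upstream, from 36500925 to 36501331, and held 5.78, 8.67 and 7.73 in adult replicates 4, 5 and 6, and 4.18, 4.99 and 4.28 in P10 replicates 1, 2 and 3 (CPM). All adult values were higher there, with a log2 fold change of 0.72 (SE 0.27, edgeR adjusted p = 0.0975), and its call was kept in 4 of those fits. The ACS over the start itself, from 36502271 to 36502682, held 4.8 ± 1.38 CPM (SD, n = 3) in the adult and 3.77 ± 0.488 CPM (SD, n = 3) in the P10 libraries and was not called, with a log2 fold change of 0.36 (SE 0.30, edgeR adjusted p = 0.552).

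Among the 7 genes, Cacna1a was the one whose summed integrations did not overlap between the ages. The sums were 63.2, 64.2 and 58.1 in adult replicates 4, 5 and 6 and 53.5, 40.4 and 40.1 in P10 replicates 1, 2 and 3 (CPM), and the means were 61.8 ± 3.24 CPM (SD, n = 3) in the adult and 44.6 ± 7.64 CPM (SD, n = 3) in the P10 libraries. The exact permutation test over libraries gave p = 0.1, which is the lowest value possible with 3 libraries per age, and 0.7 after Benjamini-Hochberg adjustment over the 7 genes. The log2 ratio of the means was 0.47, which was exceeded by 278 of 5703 genes with at least 5 ACS, and it turned to -0.39 with the total reads as library sizes. The share of all genes whose sums did not overlap was not counted. The sums of the related genes Cacna1b and Cacna1e, described later, did not overlap either.

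Cacnb2 encodes an auxiliary β-subunit, which brings the pore-forming subunits of calcium channels to the membrane and sets their gating. It lies on the plus strand of chromosome 17 from 83540715 to 83761206, with 10 of its 23 ACS inside the gene and 13 upstream. Of these ACS 4 were Up and 2 Down. The Up ACS with the smallest p-value is 106 kb upstream, from 83434415 to 83435077, and held 24.4, 13.7 and 24.9 in adult replicates 4, 5 and 6, and 11.7, 12.4 and 8.67 in P10 replicates 1, 2 and 3 (CPM). Adult replicate 5 was well below the other adult libraries but still above all P10 libraries. The log2 fold change was 0.94 (SE 0.23, edgeR adjusted p = 0.00871), called in all 6 fits without a library.

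Inside Cacnb2, the ACS from 83601857 to 83602336 held 12, 8.57 and 10.3 in adult replicates 4, 5 and 6, and 7.02, 4.99 and 4.33 in P10 replicates 1, 2 and 3 (CPM), without overlap, with a log2 fold change of 0.91 (SE 0.26, edgeR adjusted p = 0.0225) that was also called in all 6 of those fits. The ACS from 83625451 to 83625823 held 6.86 ± 0.371 CPM (SD, n = 3) in the adult and 4.19 ± 1.31 CPM (SD, n = 3) in the P10 libraries, with a log2 fold change of 0.71 (SE 0.29, edgeR adjusted p = 0.131), and was called in 2 of the fits. Next to the gene start, the proximal ACS from 83539655 to 83540620 held 19.8, 15.6 and 19.5 in adult replicates 4, 5 and 6, and 16.6, 6.21 and 9.89 in P10 replicates 1, 2 and 3 (CPM). P10 replicate 1 lay among the adult libraries there and the other two P10 libraries below them. The log2 fold change of this start-proximal ACS was 0.73 (SE 0.26, edgeR adjusted p = 0.0756), called in 4 of the 6 fits.

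Both Down ACS of Cacnb2 had few integrations. The one from 83521077 to 83521381, 19.5 kb upstream, held 1.99, 1.07 and 2.19 in adult replicates 4, 5 and 6, and 3.72, 3.14 and 2.91 in P10 replicates 1, 2 and 3 (CPM), and the one from 83590016 to 83590254, inside the gene, held 0.994, 0.39 and 1.42 in adult replicates 4, 5 and 6, and 2.14, 2.0 and 1.53 in P10 replicates 1, 2 and 3 (CPM). The groups did not overlap at either, and adult replicate 5 was the lowest library at both. Their log2 fold changes were -0.91 (SE 0.36, edgeR adjusted p = 0.128) and -1.05 (SE 0.45, edgeR adjusted p = 0.163), called in 3 and 1 of the 6 fits without a library. Without P10 replicate 1 they were -0.81 (edgeR adjusted p = 0.26) and -0.95 (edgeR adjusted p = 0.303), so neither was called. In that fit 7 of the 23 ACS were Up, against 12.8% of all ACS, and in the other fits without a library 2 to 4 were Up. The Cacnb2 ACS with the most integrations, from 83666440 to 83666889, held 26.7 ± 3.15 CPM (SD, n = 3) in the adult and 27 ± 8.49 CPM (SD, n = 3) in the P10 libraries and was not called, with a log2 fold change of -0.02 (SE 0.20, edgeR adjusted p = 0.976).

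Kcnma1 encodes the pore of the BK channel, a large-conductance potassium channel that opens with calcium and depolarization and helps to end action potentials. It lies on the plus strand of chromosome 15 from 339099 to 1037103, and its 51 ACS are the most of the 7 genes, 36 of them inside the gene and 12 upstream. Of these 51 ACS, 12 were Up (23.5%) and 1 Down (1.96%), against 12.3% and 6.63% of all ACS. The groups did not overlap at any of the 12 Up ACS, which were called from these same libraries. Of the Up ACS 10 lie inside the gene, at 36.4 to 403 kb from its start, 1 lies 329 kb upstream and 1 lies 914 kb from the start on the far side of the gene.

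The Up ACS of Kcnma1 with the smallest p-value, which also has the highest log2 fold change of the 136, lies from 543980 to 544215, 205 kb inside the gene. It held 7.23, 6.52 and 6.7 in adult replicates 4, 5 and 6, and 2.09, 2.57 and 1.8 in P10 replicates 1, 2 and 3 (CPM). The values within each age were close together and the ages were far apart, and the log2 fold change was 1.67 (SE 0.29, edgeR adjusted p = 3.75e-04), with 1.54 to 1.79 when each library was left out.

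The ACS from 741760 to 742357 held 15.6, 14.8 and 12.8 in adult replicates 4, 5 and 6, and 6.88, 5.35 and 7.45 in P10 replicates 1, 2 and 3 (CPM), a log2 fold change of 1.13 (SE 0.23, edgeR adjusted p = 0.0017). The ACS from 375199 to 375815, 36.4 kb from the start, held 26.7, 24.8 and 16.9 in adult replicates 4, 5 and 6, and 15.2, 9.34 and 7.88 in P10 replicates 1, 2 and 3 (CPM), a log2 fold change of 1.08 (SE 0.24, edgeR adjusted p = 0.00335). At this last site adult replicate 6 and P10 replicate 1 were nearly level, whereas the other libraries of each age were further apart. All 3 of these calls held in every fit that left out a library. The other 9 Up ACS of Kcnma1 had log2 fold changes from 0.54 to 1.32.

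The Kcnma1 start itself did not pass the test. Its TSS ACS, from 338631 to 339701 and overlapping the gene start, held 17.4, 16.8 and 13.4 in adult replicates 4, 5 and 6, and 19.7, 17 and 19.98 in P10 replicates 1, 2 and 3 (CPM), so that the groups overlapped, with a log2 fold change of -0.25 (SE 0.20, edgeR adjusted p = 0.523). The ACS with the most integrations, from 114646 to 115630 and 224 kb upstream, held 25.7 ± 6.51 CPM (SD, n = 3) in the adult and 26.9 ± 5.58 CPM (SD, n = 3) in the P10 libraries and was not called, with a log2 fold change of -0.07 (SE 0.20, edgeR adjusted p = 0.905). The Down ACS, from 597278 to 597886 inside the gene, lies among the Up ACS. It held 3.98, 5.45 and 4.25 in adult replicates 4, 5 and 6, and 11.2, 4.07 and 7.61 in P10 replicates 1, 2 and 3 (CPM), where P10 replicate 2 was at the adult level, with a log2 fold change of -0.75 (SE 0.31, edgeR adjusted p = 0.142), and it kept its call in 2 of the 6 fits without a library. Without P10 replicate 1 the value was -0.38 (edgeR adjusted p = 0.563), so it was not called. In that fit 17 of the 51 ACS were Up, against 12.8% of all ACS, and in the other fits without a library 6 to 12 were Up.

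**Figure D2:**
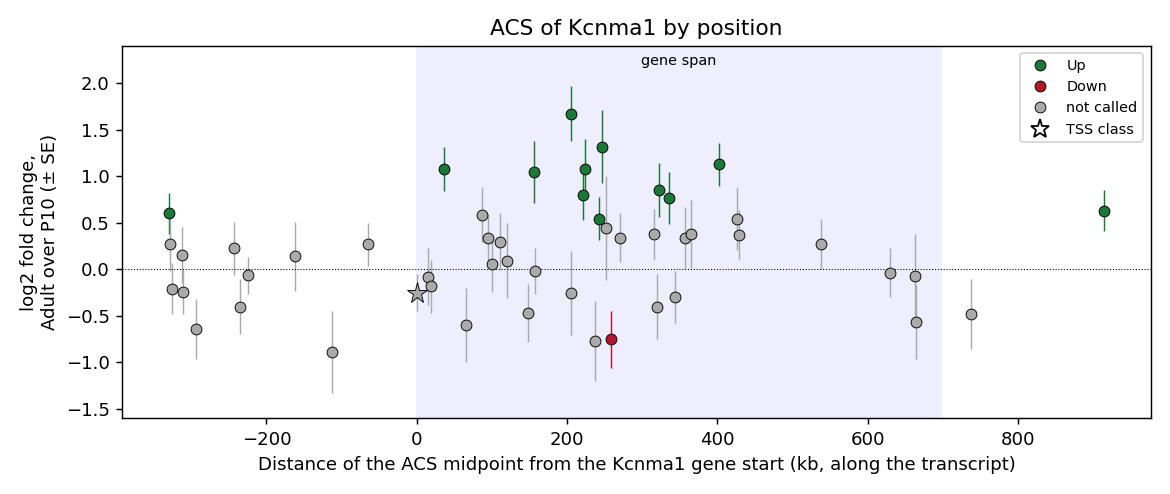
The log2 fold change (Adult over P10, with its SE) of the 51 Kcnma1 ACS is plotted against the distance of the ACS from the gene start in kb, with the gene span shaded. The 10 Up ACS inside the gene sit between 36.4 and 403 kb from the start, and the ACS over the start is not called.

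Across all 7 genes, 12 of the 29 called ACS kept their call whichever library was dropped, 11 of them Up and 1 Down. Over all ACS, 51.4% of the Up calls, 27.5% of the Down calls and 43% of both together were kept in this way, so the channel genes were near the background. The 12 ACS were 5 of Kcnma1, 2 each of Cacna1a, Cacna1d and Cacnb2, and 1 of Cacna1c.

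**Figure D3:**
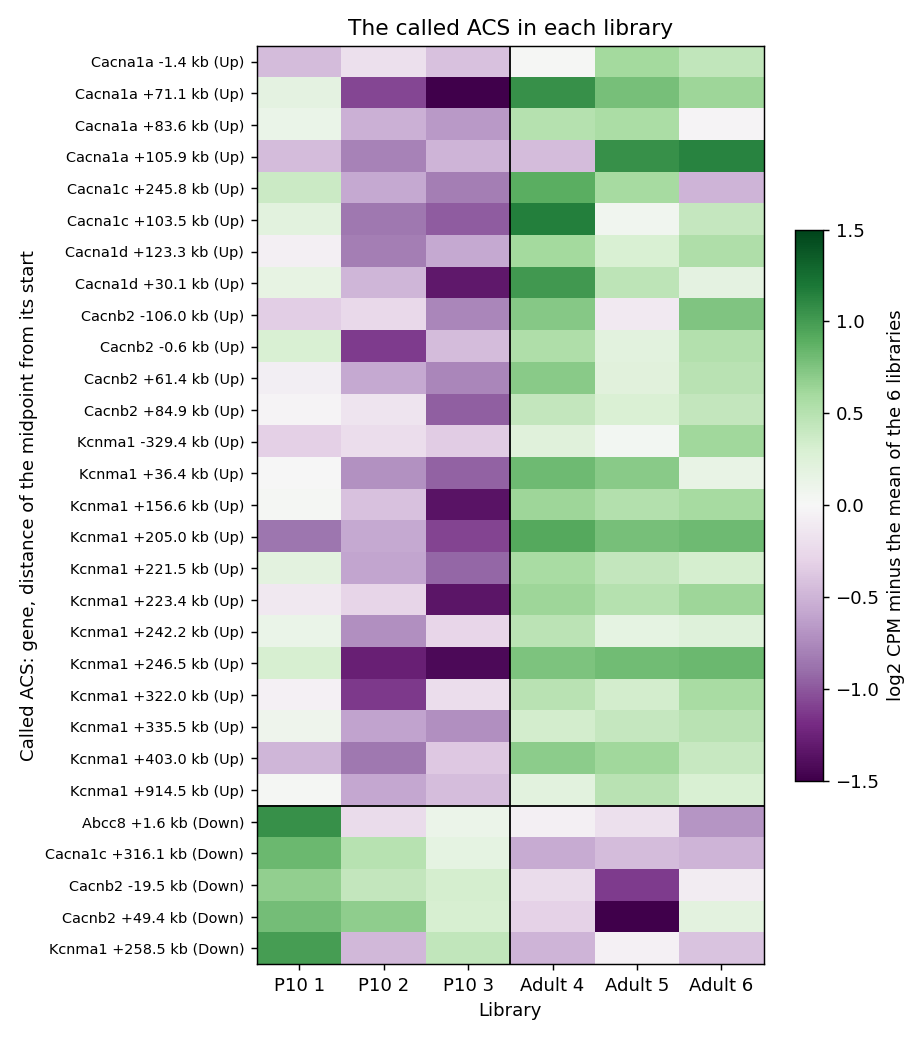
For each of the 29 called ACS (rows, with the distance of the midpoint from the gene start in kb), the colour shows the log2 CPM of each library minus the mean of the 6 libraries. P10 replicate 1 is the highest P10 library at 19 of the 24 Up ACS and the highest of all libraries at the 5 Down ACS.

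P10 replicate 1 stood apart from the other P10 libraries at these genes. The 109 ACS at which it was the highest P10 library were 80.1% of the 136, against 36.2% of all ACS and 32.5% of all distal ACS, and they included all 9 ACS of Kcnj11 and all 5 of Abcc8. Without it, 42 of the 136 ACS were Up and 1 Down, against 12.8% and 6.78% of all ACS in that fit, and all 24 Up ACS of the full fit were among the 42. Without P10 replicate 2 or 3, which leaves replicate 1 with a single other P10 library, 13 and 12 ACS were Up (7.85% and 8.77% of all ACS), and 3 and 4 were Down (3.23% and 4.17%). Dropping adult replicate 4, 5 or 6 left 19, 22 and 26 Up (9.56%, 13% and 10.7% of all ACS) and 2, 4 and 4 Down (5.37%, 7.1% and 4.96%).

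The summed integrations of every one of the 7 genes were highest in replicate 1 among the P10 libraries. The ratio of this library to the mean of P10 replicates 2 and 3 was 1.82 for Kcnj11, 1.8 for Abcc8, 1.61 for Cacna1c, 1.57 for Cacna1d, 1.42 for Cacnb2 and 1.33 for both Cacna1a and Kcnma1. The median of this ratio over 5703 genes with at least 5 ACS was 1.02, and 17 of them exceeded Kcnj11 and 21 exceeded Abcc8. Of the 7 genes, the KATP genes had the highest values of this ratio. Adults differed among themselves too, with adult replicate 4 over replicate 6 at 1.75 for Kcnj11 and 1.56 for Abcc8, against a median of 1.06 over these genes.

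**Figure D4:**
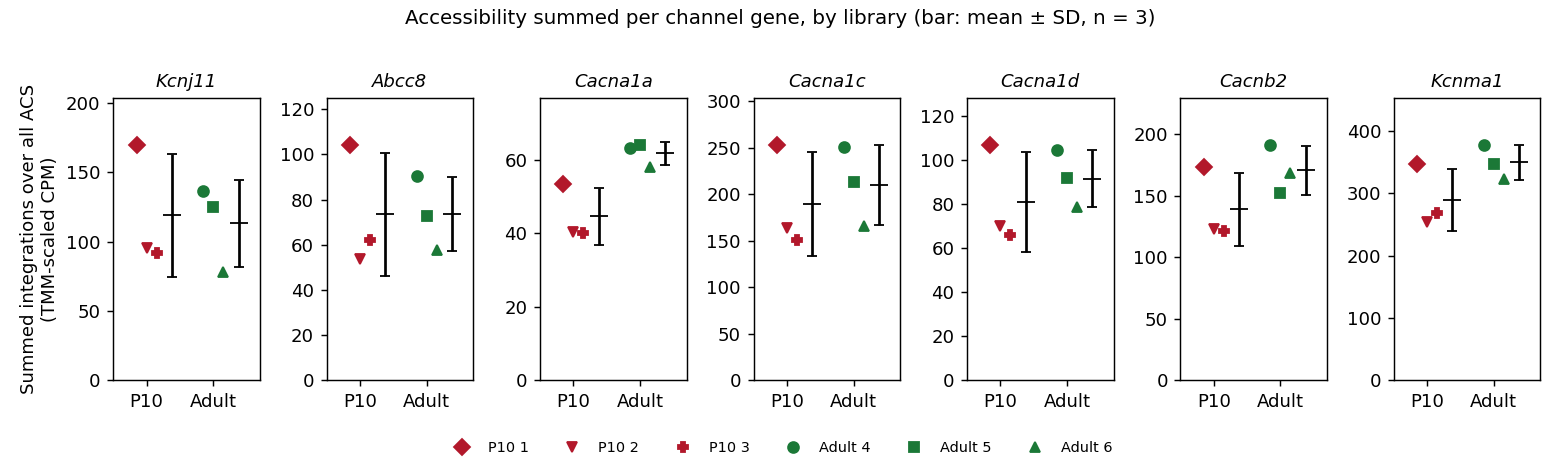
TMM-scaled CPM summed over all ACS of a gene are plotted for each library, with the mean and SD of each age beside the points. P10 replicate 1 lies above the other P10 libraries at all 7 genes. Of the 7, Cacna1a is the gene at which all adult libraries lie above all P10 libraries, and the share of all genes was not counted.

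The sums of the remaining genes overlapped between the ages. Cacna1c held 209.9 ± 42.6 CPM (SD, n = 3) in the adult and 189 ± 55.8 CPM (SD, n = 3) in the P10 libraries, and the exact permutation test gave p = 0.6. For Cacna1d the values were 91.5 ± 13 CPM (SD, n = 3) in the adult and 80.9 ± 22.5 CPM (SD, n = 3) in the P10 libraries, with p = 0.6 in the exact permutation test. Cacnb2 held 171 ± 19.7 CPM (SD, n = 3) in the adult and 139 ± 29.6 CPM (SD, n = 3) in the P10 libraries (exact permutation test, p = 0.3), and Kcnma1 held 349 ± 27.5 CPM (SD, n = 3) in the adult and 289 ± 50.1 CPM (SD, n = 3) in the P10 libraries (exact permutation test, p = 0.2). Without P10 replicate 1 each of these genes, like Cacna1a, had all adult libraries above both remaining P10 libraries, whereas Kcnj11 and Abcc8 did not. P10 replicate 1 was the highest P10 library for all of these sums, so leaving it out could only move them towards such a separation. The share of all genes that separate in this way was not counted, and a difference between the KATP genes and the others was not tested.

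Per kb of ACS, the level was highest at the KATP genes. Abcc8 held 30.7 ± 6.81 in adults and 30.7 ± 11.3 in P10 islets (CPM per kb, SD, n = 3 each) and Kcnj11 28.9 ± 7.95 in adults and 30.4 ± 11.3 in P10 islets, which did not differ beyond their spread. Cacna1c followed, with 22.1 ± 4.48 in adults and 19.9 ± 5.87 in P10 islets, whose values overlapped those of the KATP genes within 1 SD at both ages. Cacnb2 held 18.6 ± 2.15 in adults and 15.1 ± 3.23 in P10 islets, Kcnma1 17.2 ± 1.35 in adults and 14.2 ± 2.46 in P10 islets, Cacna1a 16.1 ± 0.842 in adults and 11.6 ± 1.99 in P10 islets and Cacna1d 16 ± 2.28 in adults and 14.1 ± 3.93 in P10 islets. In adults, neighbours in this order differed by less than the larger of their SDs. In P10 islets this held except for Kcnma1 and Cacna1a, the latter being the lowest of the 7 genes.

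**Figure D5:**
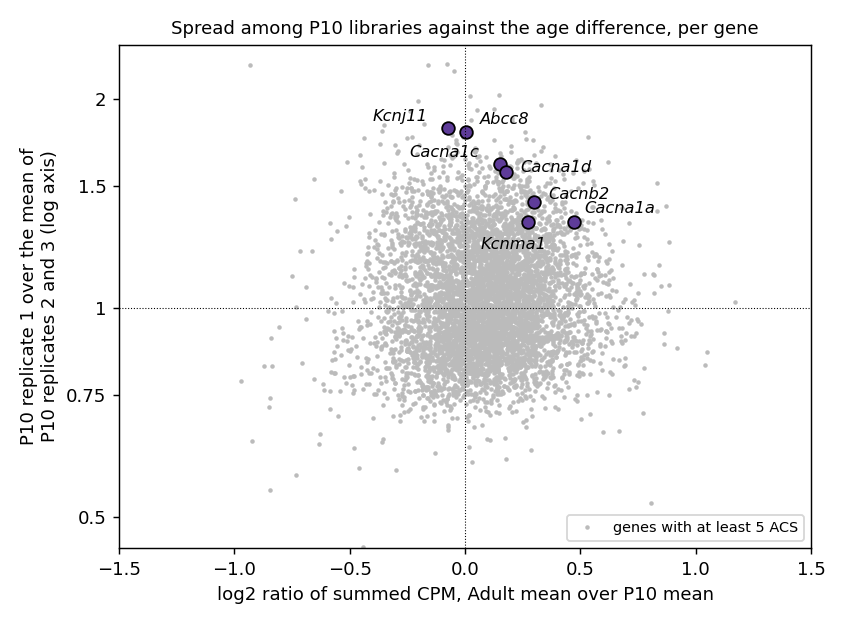
For 5703 genes with at least 5 ACS, the ratio of P10 replicate 1 to the mean of P10 replicates 2 and 3 (log axis) is plotted against the log2 ratio of the adult to the P10 mean of summed CPM. The 7 channel genes lie between 1.33 and 1.82 on the first measure, where the median gene is at 1.02.

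The share of a gene's integrations that falls in its TSS ACS does not depend on the scaling between libraries. For Kcnma1 it was 4.59%, 4.82% and 4.15% in adult replicates 4, 5 and 6 and 5.68%, 6.73% and 7.46% in P10 replicates 1, 2 and 3. The adult share was lower in every library, by 2.1 percentage points on average (the signed difference is -2.1, exact permutation test, p = 0.1, and 0.5 after adjustment over the 5 genes with a TSS ACS). Over the whole series the median log2 fold change was also lower in the TSS class (-0.10) than in the distal class (0.02). The share of all genes with a lower adult TSS share in every library was not counted. The shares of the other channel genes overlapped between the ages. They were 15.5% ± 3.14 (SD, n = 3) in the adult and 10.4% ± 1.99 (SD, n = 3) in the P10 libraries for Abcc8, and 10.1% ± 0.616 (SD, n = 3) and 9.74% ± 2.2 (SD, n = 3) for Kcnj11. The mean shares were 7.71% and 8.67% for Cacna1a and 5.13% and 6.59% for Cacna1d.

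The other genes of the pathway were taken from lists of related channels. Of 147 ACS near 21 other calcium channel subunits, 22 were Up and 8 Down (15% and 5.44%, against 12.3% and 6.63% of all ACS), with a median log2 fold change of 0.01. Of 211 ACS near 28 other repolarizing potassium channels, 36 were Up and 12 Down (17.1% and 5.69%), with a median of 0.04. Of 197 ACS near 15 genes of calcium stores and pumps, 27 were Up and 10 Down (13.7% and 5.08%), with a median of -0.00451. These shares were near the background, and nothing was read from them about the lists. The Up share of the 136 channel ACS, 17.6%, was close to that of the potassium channel list and was 14.1% without Kcnma1. It is likewise given as a description. The related KATP pore gene Kcnj8 had a single ACS, which was not called.

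The genes named here from these lists are examples and are given as a description. Of all ACS, 12.3% were Up and 6.63% Down. Cacna1e, which encodes the R-type calcium channel pore CaV2.3, had 6 Up (31.6%) and 2 Down (10.5%) among 19 ACS. Its sums were 129.8 ± 13.6 CPM (SD, n = 3) in the adult and 84.2 ± 2.26 CPM (SD, n = 3) in the P10 libraries. Cacna1b, the N-type pore CaV2.2, had 2 Up among 10 ACS (20%), with 104 ± 14.6 CPM (SD, n = 3) in the adult and 79 ± 7.86 CPM (SD, n = 3) in the P10 libraries. The other pore genes of the list, Cacna1f, Cacna1g, Cacna1h, Cacna1i and Cacna1s, had no called ACS. Of the auxiliary subunits of the BK channel, Kcnmb1 had 2 Up among 13 ACS (15.4%), Kcnmb2 4 Up (21.1%) and 1 Down (5.26%) among 19, and Kcnmb4 none called among 13.

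The gene whose summed log2 CPM followed each channel gene most closely over the 6 libraries was Nrg2 for Kcnj11 (Pearson r = 0.994), Fam163a for Abcc8 (0.995), Ret for Cacna1a (0.998), Bcl3 for Cacna1c (0.998), Ptprn2 for Cacna1d (0.993), Il1r2 for Cacnb2 (0.999) and Pcp4 for Kcnma1 (0.998). These are the highest of 5702 values each over 6 libraries that share their depth and age, and are given as a description only.

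Markers of islet and other cell types were read from the ACS listed with them. Of 10 β-cell markers, the 8 with ACS were analysed, which were Ins1, Ins2, Iapp, Slc2a2, Ucn3, Nkx6-1, Pdx1 and Glp1r. Their summed CPM in replicate order were 1090.0, 949 and 986 in adults and 1204, 893 and 879.8 in P10 islets, so P10 replicate 1 was the highest of the 6 libraries, and its ratio to the mean of the other two P10 libraries was 1.36. Of the 97 ACS of this list P10 replicate 1 was the highest P10 library at 52 (53.6%, against 36.2% of all ACS). Of the 97, 14 were Up and 11 Down (14.4% and 11.3%, against 12.3% and 6.63% of all ACS). The Down ACS were 9 of Ins1, which had 28 ACS, and 1 each of Ins2 and Pdx1. The Up ACS were 6 of Slc2a2, 3 each of Ucn3 and Nkx6-1, and 2 of Ins1. The sums of the α-cell list (7 of 7 genes) ran from 989 to 1161 in adults and 848 to 949 in P10 islets, and its replicate 1 ratio was 1.02. The δ- and PP-cell list (5 of 6 genes) ran from 308 to 400.0 in adults and 323 to 377 in P10 islets, its replicate 1 ratio was 1.16, and P10 replicate 1 was the highest P10 library at 51.6% of its ACS, against 53.6% for the β-cell list and 24.4% for the α-cell list.

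Of the lists of cells other than endocrine cells, the endothelial list (7 of 8 genes analysed) summed to 414 to 491 in adults and 372 to 399 in P10 islets, the immune list (6 of 7) to 83 to 94.9 in adults and 62.1 to 74.5 in P10 islets and the duct list (5 of 7) to 265 to 292 in adults and 244 to 259 in P10 islets. The sums of these lists were higher in all adult libraries, as was that of the α-cell list (exact permutation test, p = 0.1 for each, the smallest possible, and 9 lists were compared). Within each of these lists the genes went in both directions. The log2 ratio of the adult to the P10 mean was 0.49 for Irx1 and -0.23 for Gcg (α-cell). It was 0.53 for Cdh5 and -0.57 for Erg (endothelial), and 0.73 for Cd74 and -0.35 for Ptprc (immune). In the duct list it was 0.62 for Cftr and -0.63 for Muc1. The acinar list (8 of 10) ran from 545 to 602 in adults and 546 to 551 in P10 islets, the mesenchymal list (7 of 8) from 413 to 473 in adults and 404 to 416 in P10 islets and the Schwann and neuronal list (4 of 7) from 357 to 404 in adults and 337 to 379 in P10 islets, each with overlap. The P10 replicate 1 ratio of these 6 lists was between 0.972 and 1.07. Markers without an ACS were left out, so the lists cannot show that a cell type was absent. The part of cell mix in the channel results was not tested.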

How the data were processed

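ATAC-seq was performed on dissociated islet cells of 3 adult and 3 P10 samples. Reads were aligned by the authors with BWA (0.7.13) to the Rn5 genome. They removed mitochondrial reads and those with a mapping quality under 30, and called peaks with MACS2 (2.1.1) on the samples of each age combined, joining the peaks of both ages, after which Tn5 integrations per ACS were counted with pyDNase. The tools named in the submitters' processing notes also include FastQC (0.11.2) and SAMtools (1.3). Whether duplicate reads were removed is not given in the sources used here. The values used were the deposited raw counts of integrations per ACS, with the deposited nearest gene, distance and class. The deposited log2 fold changes, mean levels, F statistics, p-values and FDR are results of the authors' own comparison and were not used.

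Of 101941 entries, 338 repeated an ACS with a further gene, and each of the 101603 distinct ACS was tested once. edgeR (4.0.16, R 4.3.3) was used with TMM factors, no filter on low counts, and the quasi-likelihood test (glmQLFit and glmQLFTest) of Adult against P10 without covariates, with Benjamini-Hochberg adjustment over all ACS. The SE is the log2 fold change divided by the square root of F. The procedure was tested on simulated data. Sums per gene were compared with the two-sided exact permutation test over libraries (SciPy 1.17.1). Nothing states more about the independence of the P10 pools than that they came from 3 litters, and p-values refer to these libraries. The edgeR test sets the age difference against a variance that draws on all ACS, and the permutation test against regroupings of the libraries. Intervals are not given for counts, and depth was 7916919 to 21168463 integrations in ACS.

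For each gene, the ACS named were those of the TSS class, the ACS of most integrations and every called ACS, or, for a gene with more than 6 called (Kcnma1), the 3 Up and up to 3 Down with the smallest p-values. The genes and all lists were chosen with earlier results of these data known. Alternatives were other library sizes (median-of-ratios, column sums, total reads), filters (filterByExpr and a mean of at least 50), DESeq2 (1.42.0), limma voom (3.58.1), robust empirical Bayes, every listed entry kept, an FDR of 0.05, and leaving out each library. Promoters came from a RefSeq table of GRCr8, in which 5 of the 7 genes matched, and no sequence of the ACS was read because no genome of the build Rn5 was used here.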

Additional observations from a re-analysis of the deposited data

How the results depend on the processing

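No paired analysis was possible because the groups share no replicate numbers (P10 has 1 to 3 and Adult 4 to 6). The scaling mattered most. With the total reads as library sizes, 1062 of all ACS were Up and 61663 Down, 1 and 69 of the channel ACS, and 8 and 337 of the ACS of the other channel and calcium lists. With column sums, 10732 of all ACS, 9 of the channel ACS and 49 of the other lists were Down. At an FDR of 0.05 the Up and Down counts were 7177 and 1945 for all ACS, 12 and 1 for the channel genes and 44 and 6 for the other lists. DESeq2, limma voom and the filter at a mean of 50 each left 3 Down channel ACS.

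Leaving out each library gave 12 to 42 Up and 1 to 4 Down channel ACS, with 42 Up and 1 Down without P10 replicate 1, 13 and 3 without P10 replicate 2, 12 and 4 without P10 replicate 3, and 2 Down without adult replicate 4. For all ACS the ranges were 7973 to 13232 Up and 3285 to 7215 Down, both lowest without P10 replicate 2 (4232 Down without replicate 3). For the other lists they were 54 to 91 Up (54 without adult replicate 4, 55 without P10 replicate 2) and 13 to 26 Down (13 without P10 replicate 2, 16 without replicate 3).

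With total reads, log2 fold changes turned to -0.79 at the Kcnj11 TSS ACS, -0.46 at the Abcc8 TSS ACS, -0.45 at the Cacna1a TSS ACS, -0.19 and -0.11 at the Cacna1a ACS from 36585834 and 36500925, -0.20 at the Cacna1c ACS from 216938842, -0.62 at the Cacna1d ACS from 6242501, and -0.17 and -0.16 at the Cacnb2 ACS from 83539655 and 83625451. The Kcnj11 TSS ACS also turned to -0.042 with column sums and -0.035 with the filter at 50, and the Cacnb2 ACS from 83666440 to 0.0051 with limma voom. Without each library, 5 of the named ACS that were not called changed sign. They ran from -0.10 to 0.22 (Kcnj11 TSS), -0.37 to 0.19 (Kcnj11 from 103213393), -0.33 to 0.16 (Abcc8 from 103236292), -0.17 to 0.26 (Cacnb2 from 83666440) and -0.27 to 0.10 (Kcnma1 from 114646).

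The log2 ratios of the gene sums with total reads were -0.88 for Abcc8, -0.39 for Cacna1a, -0.72 for Cacna1c, -0.70 for Cacna1d, -0.58 for Cacnb2 and -0.59 for Kcnma1, and Abcc8 also turned to -0.012 with median-of-ratios and -0.092 with column sums. Without each library they ran from -0.25 to 0.26 for Kcnj11, -0.20 to 0.33 for Abcc8 and -0.0037 to 0.41 for Cacna1c. Marker lists with total reads were at -0.85 (β-cell), -0.57 (α-cell), -0.80 (δ and PP), -0.77 (acinar), -0.65 (duct), -0.58 (endothelial), -0.46 (immune), -0.73 (mesenchymal) and -0.75 (Schwann and neuronal). With column sums the β-cell list was at -0.071, δ and PP at -0.047, acinar at -0.033 and Schwann and neuronal at -0.0015. Without each library the β-cell list ran from -0.070 to 0.17 and δ and PP from -0.047 to 0.14. The TSS shares differed by -0.903 to 1.14 percentage points for Kcnj11 and -2.03 to 0.123 for Cacna1a. The causes were not tested.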

Other observations

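Among the genes of the related lists, some had several called ACS, and those given here were chosen after their values were seen. Of all ACS, 12.3% were Up and 6.63% Down. Kcnn2, which encodes the small-conductance calcium-activated potassium channel SK2, had 9 Up (30.0%) and 1 Down (3.33%) among 30 ACS. Its summed level was 358 ± 38.6 CPM (SD, n = 3) in the adult and 297 ± 26.7 CPM (SD, n = 3) in the P10 libraries, with overlap between the groups. Kcnd3, which encodes the A-type potassium channel Kv4.3, had 3 Up among 8 ACS (37.5%), and its sums, 96.6 ± 5.13 CPM (SD, n = 3) and 74.8 ± 5.36 CPM (SD, n = 3), did not overlap. Kcnq1, which encodes the delayed rectifier Kv7.1, had 2 Down among 3 ACS (66.7%), with 9.81 ± 1.7 CPM (SD, n = 3) in the adult and 15.6 ± 3.07 CPM (SD, n = 3) in the P10 libraries.

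Of the genes of calcium stores and pumps, Stim2, a calcium sensor of the endoplasmic reticulum, had 10 Up (15.6%, near the share of all ACS) and 1 Down (1.56%) among 64 ACS, with sums of 409.8 ± 29.1 CPM (SD, n = 3) in the adult and 339.6 ± 13.2 CPM (SD, n = 3) in the P10 libraries. Atp2b1, a calcium pump of the plasma membrane, had 5 Up (31.2%) and 1 Down (6.25%) among 16 ACS. The sums of both genes were higher in every adult library. The share of all genes whose sums do not overlap, as here and at Kcnd3, was not counted.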
